A study of Mus musculus with 30 samples.

Results

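The ligands and receptors of the interferon system were followed across Mertk knockout lines in 9 genes of the 55573 in each table: the ligands Ifnl2, Ifnl3 and Ifnb1, the type III receptor chains Ifnlr1 and Il10rb, the type I receptor chains Ifnar1 and Ifnar2, and the interferon gamma receptor chains Ifngr1 and Ifngr2. They were taken as the rows whose gene name equals one of these symbols, and the set was chosen by the measured values of Ifnl2 and Ifnl3, which had reads in the RPE of Mertk-/-V2 mice. The comparison of Mertk-/-V2 with B6 WT RPE is therefore a description here, for these genes and for every other gene in that contrast, and no test is read from it.

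RNA was sequenced from the retinal pigment epithelium (RPE) of mice at P25, with 6 libraries each of B6 WT and Mertk-/-V1 and 3 each of Mertk-/-V2 and Mertk-/-V3, and from bone marrow-derived macrophages (BMDM), with 3 libraries of each genotype. MERTK is a receptor tyrosine kinase that RPE cells and macrophages use to engulf dying cells and shed photoreceptor membrane, and the study asked how much of the knockout phenotype depends on the genome around the targeted gene. Mertk-/-V1 mice lack exon 17 through a targeting made in embryonic stem cells of another inbred strain and, after backcrossing to C57BL/6, still carry a segment of that strain's chromosome 2 around Mertk. Mertk-/-V2 mice lack exon 18, excised from a floxed allele by a tamoxifen-inducible Cre that was later bred out, and Mertk-/-V3 mice lack exons 3 and 4 after CRISPR editing of zygotes. Both of the latter lines were made on C57BL/6 without the foreign segment of chromosome 2, and both carry C57BL/6NJ as well as C57BL/6J DNA, so each knockout is one line that can differ from B6 WT elsewhere in the genome. BMDM were grown from the marrow of age-matched adult mice for 7 days in medium conditioned by L929 fibroblasts, which supplies the macrophage growth factor CSF1. The RPE libraries were made from posterior eyecups, a preparation that can carry neighbouring tissue. The titles call the replicates biological, and the paper states for its data in general that data points are separate animals. Neither says for these RNA libraries whether animals were pooled, so p-values measure the spread between these libraries.

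Interferons are secreted when cells sense nucleic acids of viruses or of their own, and they switch on a common antiviral program. Interferon beta, the product of Ifnb1, signals through IFNAR1 and IFNAR2, which most cells carry, whereas the interferon lambdas, the products of Ifnl2 and Ifnl3, signal through IFNLR1 and IL10RB, and IFNLR1 is largely restricted to epithelia. Both receptors activate the kinases JAK1 and TYK2 and a transcription factor complex that holds STAT2 and IRF9, while interferon gamma, a product of T and NK cells, uses IFNGR1 and IFNGR2.

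Ifnl2 and Ifnl3 lie close together on chromosome 7 (GRCm38, Ifnl2 at chr7:28508836-28510455 on the minus strand and Ifnl3 at chr7:28522836-28524322 on the plus strand), and they are near-identical copies. In the GENCODE vM21 annotation the coding sequences of both are 582 bases long and differ at 17 bases, an identity of 97.1%, and the encoded proteins differ at 13 of 194 codons. The stretch with the most differences, bases 414 to 563 counted from 1 at the start codon, is shown because it holds 10 of the 17 bases by which a read can be assigned to one gene or the other; capitals mark the differing bases.
Ifnl2: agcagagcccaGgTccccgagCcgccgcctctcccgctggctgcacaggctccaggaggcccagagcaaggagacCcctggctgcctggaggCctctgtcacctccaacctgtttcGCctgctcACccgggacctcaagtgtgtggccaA
Ifnl3: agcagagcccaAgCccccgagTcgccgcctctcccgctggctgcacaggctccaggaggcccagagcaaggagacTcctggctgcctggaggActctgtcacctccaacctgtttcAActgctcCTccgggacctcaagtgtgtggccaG
Of the 433 stretches of 150 bases in the coding sequence, 17 (3.93%) were identical in both genes. A read from one of these has no unique origin by itself, though its paired read can hold a differing base. How such reads were counted is not given in the sources used here, so the split between the pair is uncertain, while their joint appearance is not affected by it. Among other annotated transcripts, 1 shared a run of 31 bases with the pair, the pseudogene Gm6518, and it had 0 reads in both tissues.

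Ifnb1 is a gene on chromosome 4 (GRCm38, chr4:88522025-88522774, minus strand). Its promoter is shown because Ifnb1 had reads in all 3 Mertk-/-V2 RPE libraries, as the lambda pair did, and because the elements that drive it are textbook binding sites. The stretch covers bases -175 to -76 before the RefSeq start (GRCm38.p6, chr4:88522870-88522969, minus strand, written 5′ to 3′ on the gene's strand), and capitals mark matches to AANNGAAA, the core letters bound by interferon regulatory factors, and to the NF-kB consensus.
Ifnb1: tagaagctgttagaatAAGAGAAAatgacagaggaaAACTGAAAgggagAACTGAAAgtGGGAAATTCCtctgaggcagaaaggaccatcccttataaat
Within the 250 bases before the start, AANNGAAA matched 3 times, first at -159 and last at -126, and the NF-kB consensus matched 1 time, at -116, without overlap between them (N stands for any base). On either strand, AANNGAAA was present in 21.3% and the NF-kB consensus in 7.25% of 32851 RefSeq promoters of the same length. The remaining members are Ifnlr1 on chromosome 4 (chr4:135686287-135708181), Ifngr1 on chromosome 10 (chr10:19591949-19610229) and a receptor cluster on chromosome 16, where Ifnar2 (chr16:91372783-91405589), Il10rb (chr16:91406164-91425834), Ifnar1 (chr16:91485238-91507441) and Ifngr2 (chr16:91547072-91565623) all lie on the plus strand. None of the 9 genes is on chromosome 2.

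Between 14137666 and 34124049 reads per RPE library and between 16629659 and 25653814 per BMDM library lay behind the values. The labelled tissues matched their markers. All 7 RPE markers, among them Rpe65 and Rlbp1 of the visual cycle, had reads in RPE, with summed normalized counts of 177575 to 817779, and in BMDM Rpe65, Lrat and Ttr were at 0. The 10 macrophage and microglia markers summed to 335573 to 382609 in BMDM and to 6417 to 13177 in RPE. The RPE libraries also held other tissue: 4 markers of corneal and skin epithelium (Krt5, Krt14, Krt12 and Trp63) summed to 25008 to 162119 and 6 rod photoreceptor markers to 28525 to 780339, against 0 for the epithelial markers in BMDM. In RPE, B6 WT and Mertk-/-V1 replicates 1 to 3 were sequenced more deeply than replicates 4 to 6 (23417838 to 30196674 against 14137666 to 18266704 reads in B6 WT), and no label says whether these sets were separate batches. Mertk itself had a median normalized count of 3230 in B6 WT RPE, against 1070 for Mertk-/-V1, 1005 for Mertk-/-V3 and 3811 for Mertk-/-V2. In Mertk-/-V2 mice only exon 18 is lost, so a count over the whole gene does not check that label.

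Transcripts of both lambda interferons were found in all 3 Mertk-/-V2 RPE libraries and in none of the B6 WT or Mertk-/-V3 ones. The normalized count of Ifnl2 was 95.1, 29.7 and 69.7 in Mertk-/-V2 replicates 1 to 3, from 118, 35 and 81 reads, and 0 in every B6 WT and Mertk-/-V3 library. In Mertk-/-V1 it was 12.8 in replicate 1 (16 reads), 0.95 in replicate 2 (1 read) and 0 in the other 4. The 3 Mertk-/-V2 libraries were thus above all 15 others, and 1 Mertk-/-V1 library stood apart from its group. For Ifnl3 the normalized count was 92.7, 50.1 and 49.0 in Mertk-/-V2 (115, 59 and 57 reads), 23.3 in Mertk-/-V1 replicate 1 (29 reads) and 0 in the other 5 Mertk-/-V1 libraries and in all B6 WT and Mertk-/-V3 libraries. Here too each Mertk-/-V2 library was above Mertk-/-V1 replicate 1.

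Ifnb1, the type I ligand, appeared in the 3 Mertk-/-V2 libraries at a lower level, with 1 read each in 2 libraries of the other lines. Its normalized count was 14.5, 5.94 and 20.6 in Mertk-/-V2 (18, 7 and 24 reads), 0.80 in Mertk-/-V1 replicate 1 and 1.12 in Mertk-/-V3 replicate 1 (1 read each), and 0 elsewhere. The 3 Mertk-/-V2 libraries were again above all others. In RPKM, recovered reads per kilobase of merged exons scaled to library depth, the mean level in Mertk-/-V2 RPE was 3.52 ± 1.71 (SD, n = 3) for Ifnl2, 4.21 ± 1.52 for Ifnl3 and 0.70 ± 0.37 for Ifnb1, so that each lambda library was above each Ifnb1 library while the lambda genes overlapped with each other.

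**Figure D1:**
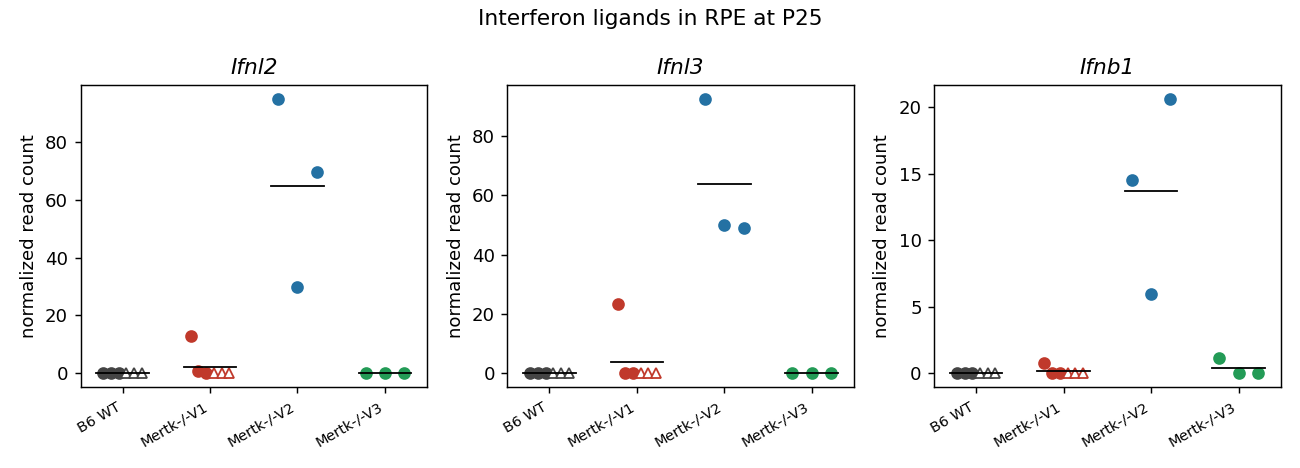
Normalized read count (y axis) of Ifnl2, Ifnl3 and Ifnb1 in each RPE library at P25, by genotype (x axis); filled circles are replicates 1 to 3, open triangles replicates 4 to 6, and horizontal lines the group means. The 3 Mertk-/-V2 libraries are the highest in each panel, and Mertk-/-V1 replicate 1 is the next for Ifnl2 and Ifnl3.

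A group with 0 reads still allows up to 3 reads over its libraries, which is 0.0232 RPM (recovered reads scaled to library depth) for B6 WT RPE, 0.0524 for Mertk-/-V3 RPE and 0.0517 for Mertk-/-V2 BMDM (counting error only). Against these limits, mean Ifnl2 in Mertk-/-V2 RPE was at least 106-fold above B6 WT RPE and at least 47.1-fold above Mertk-/-V3 RPE. The corresponding bounds for Ifnl3 were at least 105-fold and at least 46.7-fold higher, and Ifnb1 was at least 22.5-fold higher than in B6 WT RPE. In BMDM the 3 ligands had 0 reads in all 12 libraries. Against Mertk-/-V2 BMDM, the Mertk-/-V2 RPE mean was at least 47.8-fold higher for Ifnl2, 47.4-fold for Ifnl3 and 10.1-fold for Ifnb1. All these bounds take the Mertk-/-V2 RPE mean as exact. They leave out the spread between its libraries, which for Ifnl2 ran from 1.19 to 3.56 RPM. The lambda values in them are also those that chose the set. On the log2(normalized count + 1) scale, the limma fit gave Mertk-/-V2 against B6 WT RPE 5.89 ± 0.66 (SE) for Ifnl2 and 5.96 ± 0.77 for Ifnl3; these values depend on the pseudocount, and both genes passed the minimum mean count of 10 only through the Mertk-/-V2 libraries that chose them.

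For Ifnl2 and Ifnl3 no test between the other groups is given, since the mean count without the Mertk-/-V2 libraries was 0.92 and 1.55, under the minimum. The Mertk-/-V1 reads of the pair came from replicate 1 apart from 1 read. Ifnb1, under the minimum, differed by 0.14 between Mertk-/-V1 and B6 WT RPE (exact two-sided permutation test, p = 1) and by 0.36 between Mertk-/-V3 and B6 WT RPE (p = 0.333, exact permutation test, where the smallest possible is 0.0119).

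Few reads of other interferon genes were found. Of 18 further type I and II ligand genes, 13, including Ifna1, Ifna2, Ifna4 and Ifne, had 0 reads in all 18 RPE libraries, and the other 5 (Ifna13, Ifnab, Ifnk, Ifnz and Ifng) had 43 reads in all, with at most 4 in any library. In BMDM 16 of the 18 had 0 reads and the other 2 had 3 reads together. Ifng, the interferon gamma gene, had 1 read in RPE and 0 in BMDM. Markers of plasmacytoid dendritic cells, a cell type known for making type I and III interferon, were also looked at: 5 of 5 had reads and 4 of 5 a mean count of at least 10, Klk1 was near 0, and the list summed to 1558 to 2066 in Mertk-/-V2, within the 900 to 3198 of B6 WT. Most of that sum was Pacsin1, which neurons also express; Siglech, a receptor of these cells and of microglia, was at 24.98 to 45.6 in Mertk-/-V2, just above the 14.9 to 24.9 of B6 WT, at 15.8 to 70.8 in Mertk-/-V1 and at 21.6 to 48.0 in Mertk-/-V3, and the part of these cells in the result was not tested. Mertk-/-V1 replicate 1, the library with lambda reads, also had the highest Krt12 of all RPE libraries, at 42843 against at most 6773 in B6 WT and 6415 in Mertk-/-V2. Krt12 is a corneal keratin, and its part was not tested.

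The genes whose pattern over the 18 RPE libraries was most like that of the lambda pair, by Pearson correlation with the mean log2(normalized count + 1) of Ifnl2 and Ifnl3 among genes with a mean count of at least 10, were Apol9a (r = 0.864), Isg15 (0.819), Gm12250 (0.816), Dync2li1 (0.812) and Ifi27l2a (0.795). The pair rests on few libraries above 0, so this ranks genes by how they differ in Mertk-/-V2, and it is a description. Apol9a had 128, 101 and 150 normalized counts in Mertk-/-V2, above its highest value elsewhere of 89.1 in Mertk-/-V1. Isg15, an antiviral ubiquitin-like modifier, had 531, 398 and 668 in Mertk-/-V2 against 107 to 177 in B6 WT, and overlapped with Mertk-/-V1, which reached 501. Ifi27l2a had 158, 157 and 397 in Mertk-/-V2, above its highest value elsewhere of 109. Dync2li1, a component of the dynein motor of cilia, had 632, 608 and 638 in Mertk-/-V2 and at most 536 elsewhere. Between members, r was 0.988 for Ifnl2 with Ifnl3 and 0.929 for Ifnb1 with the mean of the pair.

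The receptors differed most between tissues. In B6 WT mice, where none of the values chose the set, Ifnlr1 was present in RPE and almost absent in BMDM, while the 5 other receptor chains were lower in RPE. Ifnlr1 had 1167 reads over the 6 B6 WT RPE libraries and 1 read over the 3 B6 WT BMDM libraries, a ratio of 639 after scaling to library depth (95% exact interval from the counts, 114 to 2.53e+04). Over all genotypes it had 3599 reads in RPE and 14 in BMDM, a ratio of 147 (87.4 to 269). In edgeR's quasi-likelihood test on recovered reads, the log2 difference of B6 WT RPE from B6 WT BMDM was 8.75 ± 0.90 (SE, n = 6 and 3) for Ifnlr1, with an adjusted p of 2.74e-09. The differences of the other chains were -3.16 ± 0.19 for Il10rb, -1.86 ± 0.07 for Ifnar1, -2.54 ± 0.14 for Ifnar2, -1.23 ± 0.20 for Ifngr1 and -1.31 ± 0.18 for Ifngr2, each with an adjusted p of at most 4.71e-06. Thus all 6 receptors were called, beside 85.5% of 20873 genes, a share that shows how far the tissues differ as a whole. In these bulk libraries fewer cells of a type and less RNA per cell cannot be told apart, and tissue cannot be told apart from culture and library preparation.

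On the same RPKM scale, the order of levels in B6 WT RPE was Ifngr1 at 20.7 ± 4.5 (SD, n = 6), Ifngr2 at 15.1 ± 3.2, Ifnar1 at 9.89 ± 0.89, Il10rb at 5.39 ± 0.99, Ifnar2 at 4.87 ± 0.34 and Ifnlr1 at 2.05 ± 0.72. The ranges of Ifngr1 and Ifngr2 overlapped, as did those of Il10rb and Ifnar2, and the lowest Ifngr2 value (11.2) was just under the highest Ifnar1 value (11.3). Ifnar1 was above Il10rb and Ifnar2 above Ifnlr1 in every library. In B6 WT BMDM the order was Ifngr1 at 47.0 ± 0.6 (n = 3), Il10rb at 46.5 ± 0.3, Ifngr2 at 36.3 ± 1.7, Ifnar1 at 34.1 ± 1.0, Ifnar2 at 27.2 ± 0.1 and Ifnlr1 at 0.003 ± 0.006. There Ifngr1 and Il10rb overlapped, and Ifngr2 and Ifnar1 did as well. The 2 chains of the lambda receptor were thus at 2.05 and 5.39 in RPE and at 0.003 and 46.5 in BMDM, where IL10RB also serves the receptors for IL-10 and IL-22.

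**Figure D2:**
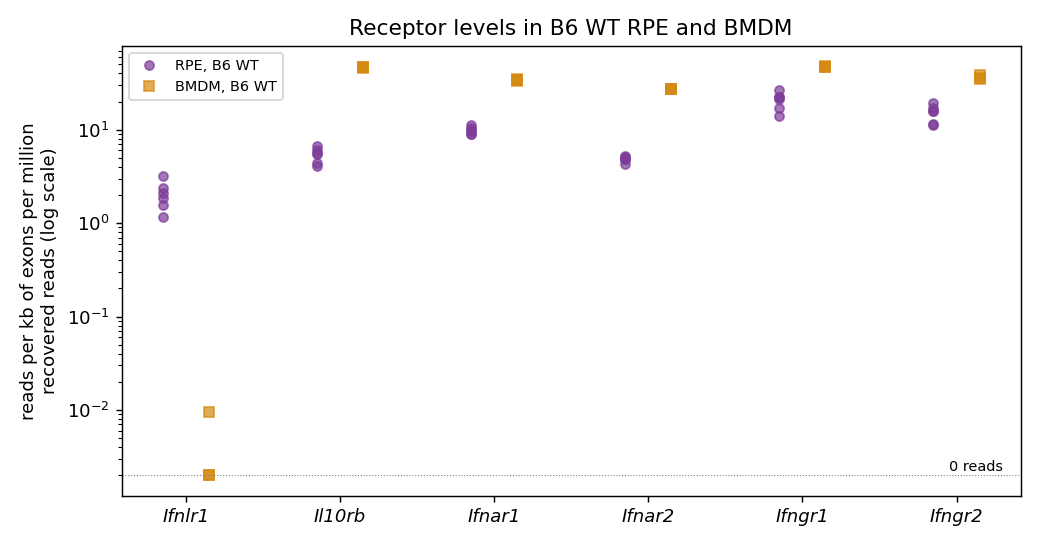
Level of the 6 receptor genes (x axis) in each B6 WT library, in RPKM (recovered reads per kilobase of merged exons, scaled to library depth) on a log scale (y axis), with circles for RPE (n = 6) and squares for BMDM (n = 3); libraries with 0 reads are drawn on the dotted line. Ifnlr1 is between 1.16 and 3.22 in RPE and has 1 read in 1 BMDM library, and the 5 other genes are higher in BMDM.

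Within RPE each knockout line overlapped with B6 WT for every receptor gene. Ifnlr1 had normalized counts of 118 to 379 (median 226) in B6 WT and 86.3 to 418 (median 256) in Mertk-/-V1. It had 122, 138 and 194 in Mertk-/-V2 and 175, 118 and 140 in Mertk-/-V3. The last 2 groups lay inside the range of B6 WT. Il10rb had 376 to 664 (median 571) in B6 WT, 332 to 751 (median 554) in Mertk-/-V1, 533, 614 and 672 in Mertk-/-V2 and 360, 397 and 441 in Mertk-/-V3. Every Mertk-/-V3 library was below every Mertk-/-V2 library for this gene, and both lines overlapped with B6 WT. The type I chains spread less: Ifnar1 ran from 1391 to 1631 in B6 WT, 1415 to 1653 in Mertk-/-V1, 1528 to 1661 in Mertk-/-V2 and 1368 to 1709 in Mertk-/-V3, and Ifnar2 from 343 to 484, 316 to 530, 429 to 462 and 280 to 489 in the same order. Of the interferon gamma receptor, Ifngr1 had 970 to 2153 (median 1641) in B6 WT, 1065 to 2123 (median 1711) in Mertk-/-V1, 1138, 1015 and 1295 in Mertk-/-V2 and 1298, 788 and 1006 in Mertk-/-V3. Ifngr2 had 1025 to 2056 (median 1603), 1207 to 2028 (median 1652), then 1153, 1139 and 1475, and 1257, 862 and 1074. For both genes the Mertk-/-V2 and Mertk-/-V3 values fell into the lower part of the B6 WT range or under it.

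Against B6 WT, the limma log2 fold changes of the 6 receptors in Mertk-/-V1 RPE ran from -0.02 ± 0.34 (SE) for Ifnlr1 to 0.12 ± 0.19 for Ifngr2, and 0 of the 6 were called, beside 0.388% of 18832 genes (0 at an unadjusted p under 0.05, and 0 with edgeR or DESeq2). With the replicate number as a block, 0 were called beside 0.696% of genes. Same-numbered libraries of these 2 groups deviated together, but some differently numbered ones did so as strongly, so a pairing by number was not shown. The 95% interval was -0.75 to 0.71 for Ifnlr1 and -0.14 to 0.14 for Ifnar1, so the interval was about as wide as the spread of Ifnlr1 between libraries and much narrower for Ifnar1. In Mertk-/-V3 RPE the fold changes were -0.57 ± 0.42 for Ifnlr1, -0.41 ± 0.25 for Il10rb, -0.58 ± 0.25 for Ifngr1 and -0.47 ± 0.23 for Ifngr2, and -0.001 ± 0.08 for Ifnar1 and -0.10 ± 0.18 for Ifnar2. Again 0 of the 6 receptors were called, beside 0.0690% of genes (1 at an unadjusted p under 0.05, Ifngr1, and 0 with edgeR or DESeq2). This count depended on the B6 WT libraries used: with B6 WT and Mertk-/-V1 replicates 1 to 3 alone, the same 4 genes were called, with fold changes of -0.90, -0.59, -0.86 and -0.73, beside 21.9% of all genes, and with replicates 4 to 6 alone none was. A share of 4 of 6 receptors stands there beside a large share of all genes.

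In Mertk-/-V2 RPE, as a description, Ifnlr1 changed by -0.51 ± 0.42, Il10rb by 0.19 ± 0.25, Ifngr1 by -0.40 ± 0.25, Ifngr2 by -0.23 ± 0.23, Ifnar1 by 0.04 ± 0.08 and Ifnar2 by 0.08 ± 0.18. Setting Mertk-/-V1 against the mean of the other 2 knockouts, which sets the line with the foreign segment against those without it, gave 0 of the 6 receptors called, beside 0.207% of genes; 2 had an unadjusted p under 0.05, Ifngr1 (0.55 ± 0.21, limma adjusted p = 0.416) and Ifngr2 (0.47 ± 0.19, limma adjusted p = 0.458). edgeR and DESeq2 called 0.

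**Figure D3:**
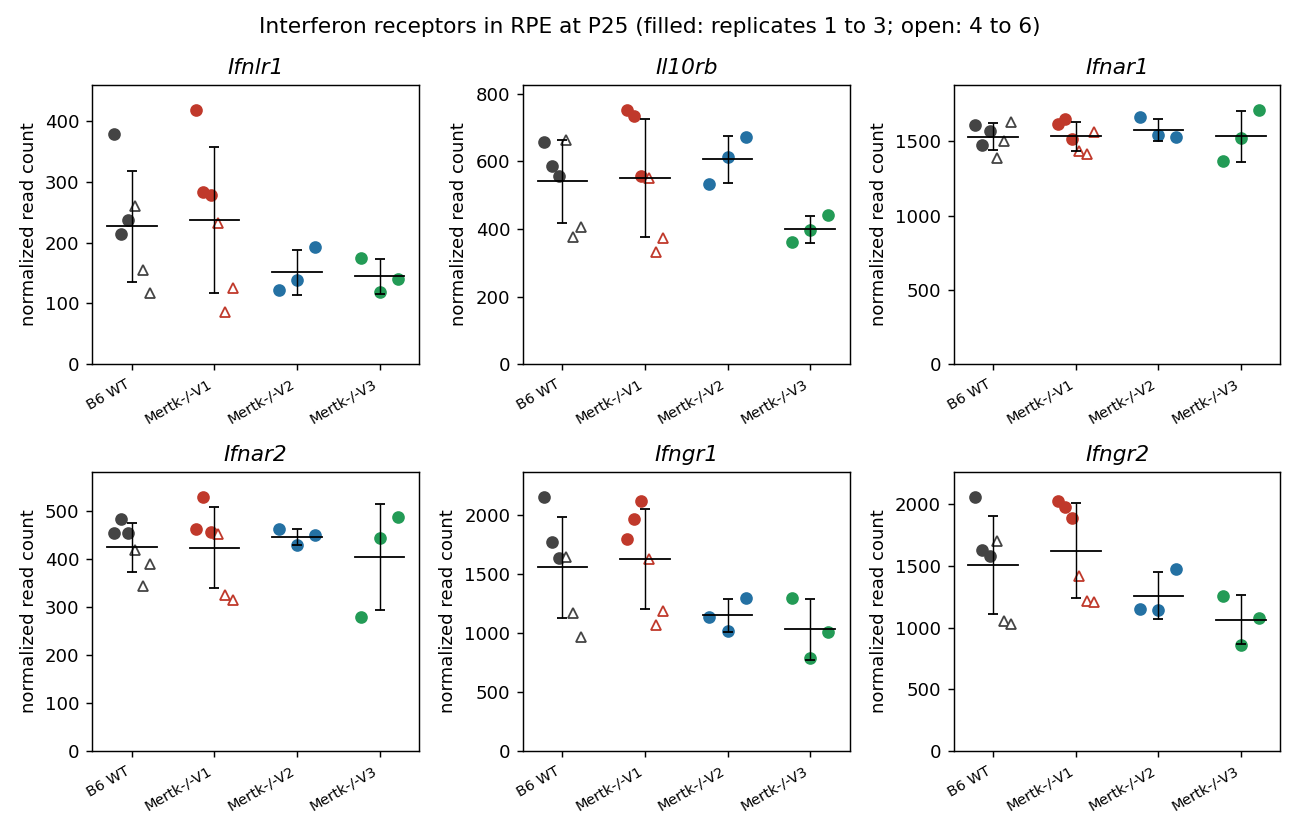
Normalized read count (y axis, from 0) of the 6 receptor genes in each RPE library by genotype (x axis); filled circles are replicates 1 to 3, open triangles replicates 4 to 6, and bars the mean ± SD. In B6 WT and Mertk-/-V1 most replicates 4 to 6 lie below replicates 1 to 3 for Ifnlr1, Ifngr1 and Ifngr2, and each knockout line overlaps with B6 WT in every panel.

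The levels of 5 receptor chains were related to those of cell type markers in the RPE libraries. Over the 18 libraries, 24 relations were computed between the 6 receptors and the mean log2 level of 4 marker lists, of corneal and skin epithelium, RPE, rods, and macrophages and microglia. By Pearson's r 14 had an adjusted p under 0.05, and by Spearman's rho 10 did. The permutations treated the 18 libraries as exchangeable, without regard to genotype or replicate set, so these p-values can be too small. Ifnlr1 rose with the corneal and skin epithelium markers (Pearson's r = 0.824, permutation p = 3e-05, adjusted p = 0.00036; Spearman's rho = 0.827, permutation p = 9e-05, adjusted p = 0.00054). Without the 2 libraries farthest from the median of the markers r was 0.747. Within B6 WT r was 0.754 and within Mertk-/-V1 0.883 (n = 6 each), and among B6 WT and Mertk-/-V1 libraries it was 0.577 in replicates 1 to 3 and 0.745 in replicates 4 to 6 (n = 6 each). Ifngr2 gave r = 0.798 (permutation p = 0.0001, adjusted p = 0.0008; rho = 0.818, permutation p = 9e-05, adjusted p = 0.00054), 0.724 without 2 libraries, and 0.394 and 0.615 within the sets. Ifngr1 gave r = 0.760 (permutation p = 0.00025, adjusted p = 0.00125; rho = 0.825, permutation p = 3e-05, adjusted p = 0.00036) and 0.755 without 2 libraries, but within the sets it was -0.296 and 0.815, so the relation did not hold in replicates 1 to 3. For Il10rb r was 0.583 (permutation p = 0.0110, adjusted p = 0.0204; rho = 0.529, permutation p = 0.0254, adjusted p = 0.0532) and 0.388 without 2 libraries, with 0.703 and 0.555 within the sets. Among the 6 Mertk-/-V2 and Mertk-/-V3 libraries r was 0.026 for Il10rb, so its relation was not seen there. In the same libraries it was 0.858 for Ifnlr1, 0.821 for Ifngr1 and 0.769 for Ifngr2. Ifnar1 passed with none of the 4 lists, and with the epithelial markers it had r = -0.003 (permutation p = 0.991, adjusted p = 0.991; rho = -0.071, permutation p = 0.779, adjusted p = 0.779).

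Ifnar2 instead rose with the RPE markers (r = 0.805, permutation p = 0.00044, adjusted p = 0.00165; rho = 0.583, permutation p = 0.0135, adjusted p = 0.0324; 0.707 without 2 libraries). It was 0.963 within B6 WT and 0.928 within Mertk-/-V1, but -0.309 in replicates 1 to 3 and 0.682 in replicates 4 to 6, so it too did not hold within both sets. With the rod photoreceptor markers Ifnar2 fell (r = -0.817, permutation p = 3e-05, adjusted p = 0.00036; rho = -0.845, permutation p = 2e-05, adjusted p = 0.00036; -0.846 without 2 libraries), with 0.020 and -0.934 within the sets. In all, 5 of the 6 chains fell with the rod markers. For Ifnlr1 r was -0.764 (permutation p = 0.00026, adjusted p = 0.00125; rho = -0.746, permutation p = 0.00079, adjusted p = 0.00379; -0.628 without 2 libraries), with -0.573 and -0.944 within the sets. For Il10rb r was -0.741 (permutation p = 0.00048, adjusted p = 0.00165; rho = -0.686, permutation p = 0.00197, adjusted p = 0.00788; -0.668 without 2 libraries), with -0.312 and -0.945 within the sets. For Ifngr1 r was -0.637 (permutation p = 0.00487, adjusted p = 0.0117; rho = -0.598, permutation p = 0.00997, adjusted p = 0.0266; -0.549 without 2 libraries), with -0.843 and -0.808 within the sets. For Ifngr2 r was -0.644 (permutation p = 0.00388, adjusted p = 0.0116; rho = -0.622, permutation p = 0.00668, adjusted p = 0.0229; -0.610 without 2 libraries), with -0.751 and -0.629 within the sets. Among the 6 Mertk-/-V2 and Mertk-/-V3 libraries r with the rod markers was -0.739 for Ifnar2 but 0.094 for Ifnlr1, -0.171 for Il10rb, 0.226 for Ifngr1 and 0.099 for Ifngr2, so for these 4 genes the relation was not seen in those lines.

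With the macrophage and microglia markers Ifngr2 rose (r = 0.617, permutation p = 0.00656, adjusted p = 0.0143; rho = 0.602, permutation p = 0.00993, adjusted p = 0.0266; 0.520 without 2 libraries), with 0.418 and 0.661 within the sets. Il10rb and Ifngr1 passed by r but not by rho. For Il10rb r was 0.588 (permutation p = 0.0105, adjusted p = 0.0204; rho = 0.531, permutation p = 0.0266, adjusted p = 0.0532; 0.489 without 2 libraries), with 0.481 and 0.350 within the sets, and for Ifngr1 r was 0.529 (permutation p = 0.0246, adjusted p = 0.0421; rho = 0.511, permutation p = 0.0325, adjusted p = 0.06; 0.476 without 2 libraries), with 0.151 and 0.605 within the sets. With the RPE markers Il10rb had r = 0.621 (permutation p = 0.00456, adjusted p = 0.0117; rho = 0.447, permutation p = 0.0648, adjusted p = 0.104; 0.433 without 2 libraries), and -0.700 and 0.619 within the sets, so it did not hold in replicates 1 to 3. The epithelial markers summed to 29877 to 62549 in Mertk-/-V2 and 25008 to 58958 in Mertk-/-V3, against 25041 to 109917 in B6 WT, and their part in the lower Ifnlr1, Ifngr1 and Ifngr2 values of these lines was not tested.

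**Figure D4:**
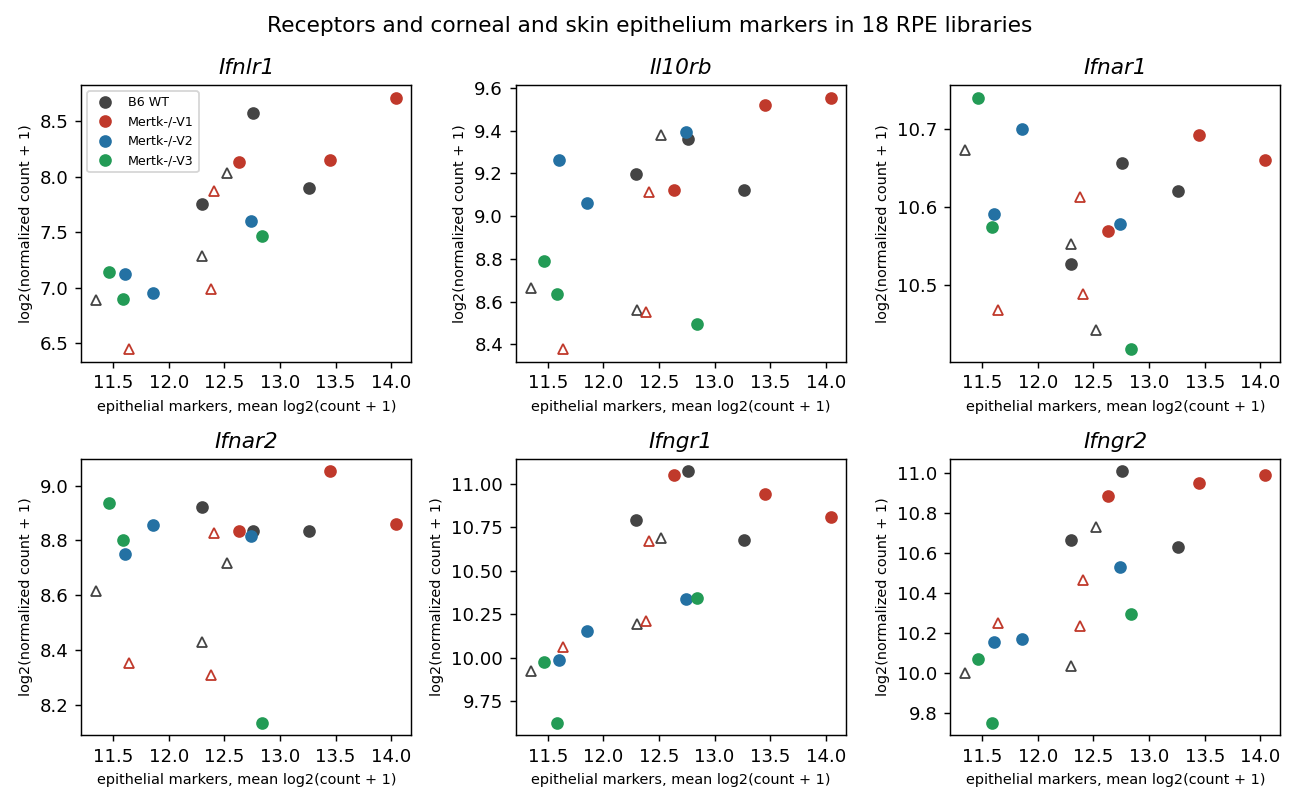
Log2(normalized count + 1) of each receptor gene (y axis) against the mean log2(normalized count + 1) of 4 corneal and skin epithelium markers (x axis) in the 18 RPE libraries, coloured by genotype; filled circles are replicates 1 to 3, open triangles replicates 4 to 6. Ifnlr1, Ifngr1 and Ifngr2 are higher where the markers are higher (r = 0.824, 0.760 and 0.798), Il10rb less so (0.583), and Ifnar1 and Ifnar2 show no such relation (r = -0.003 and 0.181). Among the Mertk-/-V2 and Mertk-/-V3 libraries r of Il10rb is 0.026.

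In BMDM the replicates were tight, and 1 receptor chain passed the test. Il10rb, the chain shared by the receptors for lambda interferons, IL-10 and IL-22, had normalized counts of 3594, 3580 and 3666 in B6 WT, 3240, 3139 and 3227 in Mertk-/-V1, 3185, 3438 and 3106 in Mertk-/-V2 and 3571, 3557 and 3569 in Mertk-/-V3. Every Mertk-/-V1 and Mertk-/-V2 library was below every B6 WT library, and so was every Mertk-/-V3 library, by less. The log2 fold change was -0.17 ± 0.04 (SE) in Mertk-/-V1 (limma, adjusted p = 0.0231), -0.16 ± 0.04 in Mertk-/-V2 (adjusted p = 0.0464) and -0.02 ± 0.04 in Mertk-/-V3 (adjusted p = 0.865). Per comparison, 1 of 5 members tested was called in Mertk-/-V1, beside 7.07% of 13420 genes, and 1 of 5 in Mertk-/-V2, beside 4.61%. These 2 comparisons share their B6 WT libraries, and a single call among 5 members does not stand apart from those shares. Both calls were marginal: leaving out single libraries took the adjusted p to as much as 0.0886 in Mertk-/-V1 and 0.134 in Mertk-/-V2, where edgeR gave 0.059.

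Il10ra, the chain that pairs with IL10RB to bind IL-10, also fell in both lines, from 1282 to 1327 in B6 WT to 953 to 1031 in Mertk-/-V1 (log2 fold change -0.41 ± 0.05, adjusted p = 0.000772 by limma) and 923 to 1060 in Mertk-/-V2 (-0.42 ± 0.05, adjusted p = 0.000988 by limma), with no overlap with B6 WT. In Mertk-/-V3 it had 1227 to 1255. Il20rb, a chain of receptors for the IL-20 family, rose from 38.1 to 44.8 in B6 WT to 55.1 to 67.0 in Mertk-/-V1 (0.57 ± 0.16, adjusted p = 0.0494 by limma) and 57.5 to 67.4 in Mertk-/-V2 (0.61 ± 0.16, adjusted p = 0.0486 by limma). These 2 genes belong to a list of 4 chains of receptors related to IL10RB, of which Il20rb is not itself a partner of IL10RB. Of the 4, 2 were tested in BMDM and both passed in each of these lines, 1 in each direction. All-gene shares called were 7.07% in Mertk-/-V1 and 4.61% in Mertk-/-V2. In Mertk-/-V3, 0 of 2 passed, beside 1.17% of all genes, and Il22ra1 had 0 reads. Both genes were named because they passed, so the lack of overlap of Il10ra adds no separate support.

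The remaining receptors did not pass in BMDM. Ifnar1 had 4025, 4050 and 4329 normalized counts in B6 WT and between 4335 and 4488 in all 9 knockout libraries, just above the highest B6 WT library, with fold changes of 0.10 ± 0.04, 0.09 ± 0.04 and 0.10 ± 0.04 in Mertk-/-V1, V2 and V3 (limma adjusted p = 0.144, 0.185 and 0.222). Ifngr2 had 2708 to 2884 in B6 WT, 2560 to 2669 in Mertk-/-V1, 2460 to 2708 in Mertk-/-V2 and 2794 to 2853 in Mertk-/-V3, with fold changes of -0.09 ± 0.04, -0.12 ± 0.04 and 0.02 ± 0.04. The fold changes of Ifnar2 ran from -0.01 to 0.08 and those of Ifngr1 from -0.02 to 0.06. In Mertk-/-V3, 0 of 5 members were called, beside 1.17% of genes (1 at an unadjusted p under 0.05, Ifnar1), and in Mertk-/-V1 against the mean of the other lines 0 of 5, beside 0.991% (1 at an unadjusted p under 0.05, Il10rb); edgeR and DESeq2 called 0 in both. Ifnlr1, under the minimum, had 0 to 4 reads per BMDM library, and its differences from B6 WT gave exact permutation p-values of 0.4, 1 and 0.2 in Mertk-/-V1, V2 and V3, where 3 against 3 libraries cannot go below 0.1.

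Whether a knockout acted differently in the 2 tissues was tested as the difference of its effects in RPE and BMDM with edgeR. Of the 6 receptors, 0 were called for Mertk-/-V1, beside 0.158% of 20873 genes, 0 for Mertk-/-V2, beside 0.0431%, and 0 for Mertk-/-V3, beside 0.0192%; 0, 0 and 1 (Ifnlr1) had an unadjusted p under 0.05, and DESeq2 called 0 in each. For Ifnl2 and Ifnl3, with 0 reads in BMDM, no finite difference could be fitted. For Il10rb the difference was 0.22 ± 0.28 (SE) for Mertk-/-V1 and 0.34 ± 0.30 for Mertk-/-V2, so the decrease in BMDM was not shown to be absent from RPE, where libraries spread more.

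Downstream of the receptors, genes induced by type I and III interferon were higher in Mertk-/-V1 RPE. The 24 genes of this list summed to normalized counts of 7411 to 11259 in B6 WT and 11705 to 22424 in Mertk-/-V1, and in the other lines to 13976 to 18151 in Mertk-/-V2 and 9017 to 9692 in Mertk-/-V3 RPE. Every Mertk-/-V1 and Mertk-/-V2 library was above every B6 WT library, and the Mertk-/-V3 sums lay within the B6 WT range. By the mean log2(normalized count + 1) of the 24 genes, Mertk-/-V3 replicates 1 and 2 (7.60 and 7.69) were above the highest B6 WT library (7.49). Replicate 3 (7.44) was not. In Mertk-/-V1, 8 of 24 were called, all higher, beside 0.388% of all genes, with a median log2 fold change of 0.80 against 0.02 over all genes tested. Mx1, a GTPase that blocks viral replication, was at 15.7 to 31.5 in B6 WT and 46.5 to 153 in Mertk-/-V1 (1.90 ± 0.31, adjusted p = 0.00775 by limma). Ifit1, which binds viral RNA, was at 274 to 443 and 768 to 1794 (1.52 ± 0.19, adjusted p = 0.000992 by limma), and Ifi44 at 33.0 to 77.3 and 101 to 226 (1.42 ± 0.22, adjusted p = 0.00504 by limma). None of these 3 genes overlapped between the groups. They were picked as the called genes with the largest fold changes, so this adds no separate support. The share of all genes without overlap is not given here. With replicates 1 to 3 of both groups alone 1 of the 24 was called, and with replicates 4 to 6 alone 0, while 10 were called with the replicate set as a term and 12, the 8 among them, with the replicate number as a block. Cell type markers moved as well. The 7 RPE markers summed to 454005 to 817779 in B6 WT and 177575 to 590457 in Mertk-/-V1, with a median log2 fold change of -0.69, 1 of 7 above 0 and 0 called. Of the 10 macrophage and microglia markers 9 had a fold change above 0, with a median of 0.52, and their mean log2(normalized count + 1) was 7.54 to 8.28 in B6 WT and 8.13 to 8.58 in Mertk-/-V1; 1 of the 10, C1qa, a complement gene, was called (1.04 ± 0.21, adjusted p = 0.0346 by limma). The part of these markers in the higher induced genes was not tested.

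The Mertk-/-V1 library with the most lambda reads did not have the highest sum of these transcripts in its group. Replicate 2, with 1 Ifnl2 read, had 22424 and replicate 1, with 16 Ifnl2 and 29 Ifnl3 reads, had 17157, and the other 4 had 11705 to 16568. By the mean log2(normalized count + 1) of the 24 genes the order differed. There replicate 3, without lambda reads, was at 8.51, above replicate 1 at 8.46, and replicate 2 was at 8.86. In Mertk-/-V2 RPE, as a description, 5 of 24 had an adjusted p under 0.05, beside 0.0690% of all genes, and the median log2 fold change was 1.24. They were led by Ifi27l2a (2.27 ± 0.32), Ifi44 (2.00 ± 0.27) and Isg15 (1.93 ± 0.32). In Mertk-/-V3 RPE 0 of 24 were called by limma, edgeR or DESeq2, beside 0.0690%, and the median was 0.16.

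**Figure D5:**
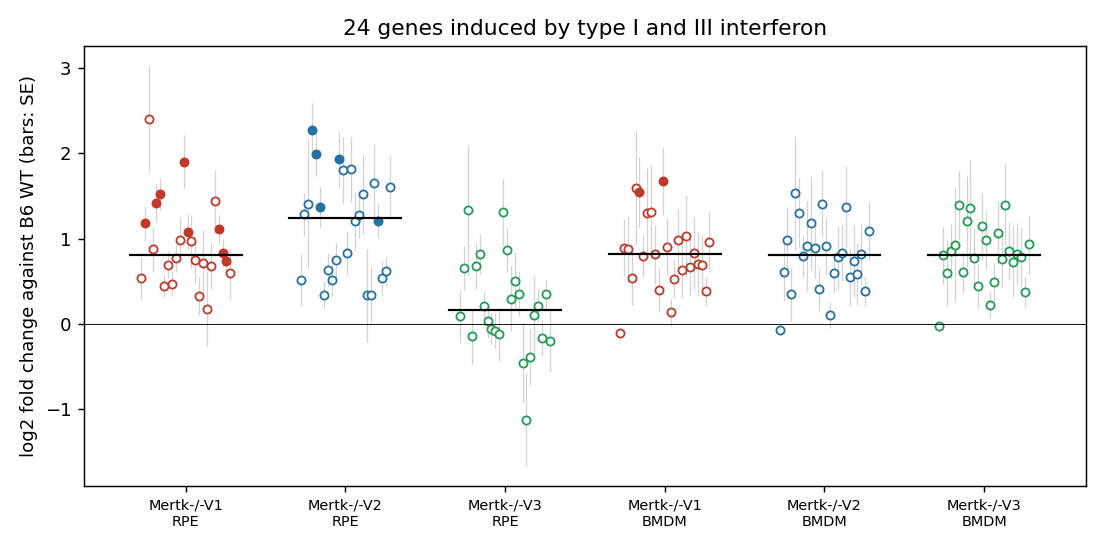
Log2 fold change against B6 WT (y axis) of 24 genes induced by type I and III interferon in each knockout line and tissue (x axis); points are genes, filled where the limma adjusted p is under 0.05, grey bars are SE and black lines the medians. The medians are 0.80, 1.24 and 0.16 in Mertk-/-V1, V2 and V3 RPE and 0.82, 0.80 and 0.81 in BMDM.

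In BMDM, which had no reads of the 3 ligands, the median log2 fold changes of the same list were 0.82, 0.80 and 0.81 for Mertk-/-V1, V2 and V3, against all-gene medians of -0.005, -0.001 and 0.005. Of the 24, 2 were called in Mertk-/-V1, a share near the background of 7.07% of all genes. They were Mx1 (1.67 ± 0.39, adjusted p = 0.0227 by limma) and Ifit1 (1.55 ± 0.41, adjusted p = 0.0376 by limma). In Mertk-/-V2 and V3, 0 were called, beside 4.61% and 1.17% of all genes. The sums spread widely between libraries, from 8336 to 10749 in B6 WT, 11451 to 12213 in Mertk-/-V1, 7664 to 16211 in Mertk-/-V2 and 11020 to 16649 in Mertk-/-V3, and the Mertk-/-V1 count went from 0 to 13 as single libraries were left out, with 13 without Mertk-/-V2 replicate 3 and 0 without B6 WT replicate 1 or 2 or without any 1 of the 3 Mertk-/-V1 replicates. For these fits with a library left out the all-gene share is not given here, so their counts are not read against a background. The 3 medians share their B6 WT libraries.

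Among the signalling genes between receptor and target, 2 of 6 were called in Mertk-/-V1 RPE, both higher: Irf9 (860 to 1075 in B6 WT and 1274 to 1783 in Mertk-/-V1, 0.58 ± 0.10) and Stat2 (1279 to 1543 and 1756 to 2133, 0.46 ± 0.09), subunits of the factor that type I and III interferon activate, with limma adjusted p-values of 0.0104 and 0.0275. Their ranges did not overlap, but both were named because they were called, so this adds no separate support. Of 7 negative regulators 2 were called, both higher: Socs3, an inhibitor of JAK kinases, at 162 to 224 and 388 to 1184 (1.52 ± 0.24, adjusted p = 0.00561 by limma), and Usp18, which blocks IFNAR2 signalling and is also on the induced list, at 156 to 220 and 253 to 535 (0.83 ± 0.17, adjusted p = 0.0332 by limma). Socs3 was also the 1 gene of these pathway lists whose Mertk-/-V1 effect differed between the tissues, by 2.31 ± 0.42 (edgeR, adjusted p = 0.0146). Of 17 sensors and inducers of interferon genes tested 2 were called, Tlr7, a receptor for single-stranded RNA (1.08 ± 0.22, adjusted p = 0.0332 by limma), and Dhx58, a sensor of the RIG-I family (0.76 ± 0.14, adjusted p = 0.0206 by limma). Of 17 genes induced by interferon gamma 2 were called, Gbp3 (1.06 ± 0.21) and Irf8 (0.88 ± 0.18), with limma adjusted p-values of 0.0316 and 0.0427. Of the chains of receptors related to IL10RB, 0 of 3 were called. These counts stand beside 0.388% of all genes. With the replicate number as a block each of these calls held, and 3 of 6 signalling genes, 3 of 7 negative regulators, 3 of 17 sensors and 4 of 17 genes induced by interferon gamma were called. Tlr7 and Irf8 are expressed by macrophages and microglia, whose marker Adgre1 was at 47.2 to 91.4 in B6 WT and 95.6 to 177 in Mertk-/-V1 RPE, while the 10 markers of that list, whose log2 levels are given above, summed to 7849 to 13177 and 6487 to 12174; their part in these results was not tested.

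In the other lines and in BMDM few genes of these lists passed. In Mertk-/-V2 RPE, as a description, the 1 called outside the induced list was Isg15 again, which is also counted among the negative regulators, and in Mertk-/-V3 RPE 0 genes of the 6 lists tested were called. In Mertk-/-V1 BMDM, Tyk2, the kinase bound to IFNAR1 and IL10RB, rose (1865 to 1983 in B6 WT and 2243 to 2367 in Mertk-/-V1, 0.26 ± 0.05, adjusted p = 0.0081 by limma), 1 of 6 in its list, and Irf5, a transcription factor of interferon genes, fell (-0.20 ± 0.05, adjusted p = 0.0386 by limma), 1 of 17. In Mertk-/-V2 BMDM Ticam1, the adaptor of TLR3, fell from 818 to 982 in B6 WT to 698 to 731 (-0.33 ± 0.07, adjusted p = 0.0147 by limma), again 1 of 17. Iigp1, a GTPase induced by interferon gamma, rose in Mertk-/-V1 (6.58 to 8.15 in B6 WT and up to 36.4, 1.75 ± 0.48, adjusted p = 0.0426 by limma) and in Mertk-/-V2 (13.3 to 66.7, 1.87 ± 0.48, adjusted p = 0.0428 by limma), 1 of 13 in each. Over all genes 7.07% were called in Mertk-/-V1 and 4.61% in Mertk-/-V2 BMDM, so counts of 1 of 17 and 1 of 13 lie near the background. A count of 1 of 6 is too small to stand apart from it. In Mertk-/-V3 BMDM 0 genes of the pathway lists passed, beside 1.17%.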

How the data were processed

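RNA of 18 RPE and 12 BMDM libraries was sequenced as 150 bp paired ends. Reads were trimmed by the authors with btrim, mapped to GRCm38 (mm10) with STAR and passed to DESeq2; the read counter, annotation and versions are not given in the sources used here. The deposited values are gene signal, namely read counts divided by 1 DESeq2 size factor per library and tissue. Dividing each library by its smallest value above 0 gave whole reads, within 0.01, for 100% of values (largest deviation 0.0005 in RPE and 0.000229 in BMDM); these are the recovered reads, and intervals and limits from them cover counting error only. No column was left over (0).

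Groups came from the sample titles. In each tissue, log2(normalized count + 1) of genes with a mean count of at least 10 was fitted with limma 3.58.1 (trend) over the 4 genotypes in R 4.3.3, and genes with a Benjamini-Hochberg adjusted p under 0.05 over all genes tested were called. Contrasts between tissues used edgeR 4.0.16 (quasi-likelihood, TMM, filterByExpr) on recovered reads of all 30 libraries; its SE was taken from the F statistic. Replicate numbers came from the titles. In RPE, same-numbered B6 WT and Mertk-/-V1 libraries deviated together in 6 of 6 pairs (correlation 0.119 to 0.724). A block on the number is therefore given for that comparison. Some differently numbered libraries correlated as strongly or more, for example B6 WT replicate 5 with Mertk-/-V1 replicate 6 (0.744). The number was thus not shown to pair these libraries, and the block is an alternative fit. Members under the minimum were compared by exact permutation over libraries, and correlations by 100000 permutations. Levels between genes use merged exon lengths of GENCODE vM21. DESeq2 1.42.0, another pseudocount, filters, weights, replicate sets and left-out libraries were alternatives. Simulated data held large changes (mean absolute log2 fold change 2.00 in both tissues) and no replicate sets. On them limma recovered 200 of 200 changed genes in Mertk-/-V1 against B6 WT RPE, with 9 false calls among 18514 genes. In BMDM it recovered 200 of 200, with 6 among 13437. Because the changes were so large, this does not measure the recovery of changes as small as those of the receptors.

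All 9 members were named, then for each pathway list and comparison up to 3 called genes with the largest absolute fold change, and the 5 genes most like the lambda pair; Il22ra1, Adgre1, C1qa, Krt12, Pacsin1 and Siglech were named after their values were seen. The members and lists were chosen with earlier results of these data known. Of 156 list symbols 1 (Mb21d1) was not matched in the tables, and 1 further gene of the signalling list is not reported here. Proteins and genome sequence were not used here.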

Additional observations from a re-analysis of the deposited data

Results flagged for a closer look

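Of 15 groups tested, 3 held a library far from the others, by Dixon's test at the 95% level. Chance flags about 1 in 20 groups of continuous values, but that rate does not hold here: all 3 concern Mertk-/-V1 replicate 1 in groups mostly at 0, and with the other 5 libraries at 0 any read is flagged. Its normalized count of Ifnl2 was 12.8, with the next library at 0.95, that of Ifnl3 was 23.3, with the others at 0, and that of Ifnb1 was 0.80, which is 1 read, with the others at 0. The same library had the highest Krt12 count of the RPE libraries, 42843; whether the 2 are linked was not tested.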

How the results depend on the processing

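In Mertk-/-V2 against B6 WT RPE, which chose the set and from which nothing is read, the members with an adjusted p under 0.05 went from 2 to 0 with edgeR, with DESeq2 to 1, with B6 WT and Mertk-/-V1 replicates 1 to 3 alone to 1, and from 0 to 2 as single libraries were left out. With the replicate number as a block (replicate block), members called were 4 in Mertk-/-V2 (beside 3.75% of genes), 4 in Mertk-/-V3 (Ifnlr1, Il10rb, Ifngr1 and Ifngr2, beside 29.8%) and 3 in Mertk-/-V1 against the mean of the others in RPE (beside 12.4%), 0 in Mertk-/-V1 and 0 in Mertk-/-V2 BMDM, and 3 for the Mertk-/-V3 effect in RPE minus BMDM (beside 6.31%); over all genes the block moved the Mertk-/-V3 RPE count from 13 to 5619. Apart from B6 WT with Mertk-/-V1 RPE, same-numbered libraries did not all deviate together, so elsewhere the numbers were not taken to pair the samples. A correlation over 0.1 was found in 1 of 3 pairs of B6 WT and Mertk-/-V3 RPE, and in 4 of 18 pairs in BMDM. For B6 WT with Mertk-/-V1 RPE a pairing was not shown either. There only B6 WT replicate 3 correlated best with the Mertk-/-V1 library of its own number. With array quality weights the members called were 3 in Mertk-/-V2 (the lambda pair and Ifngr1, beside 4.57% of genes), 4 in Mertk-/-V3 (beside 66.9%) and 6 in Mertk-/-V1 against the mean of the others in RPE (beside 28.9%), and 3, 0 and 1 in Mertk-/-V1, V2 and V3 BMDM (beside 20.6%, 8.81% and 12.6%). With B6 WT replicates 1 to 3 alone, Mertk-/-V3 RPE gave 4. Without a filter, Mertk-/-V2 RPE gave 3 (Ifnb1 added), Mertk-/-V1 against the mean of the others in RPE 1 (Ifnb1, through its Mertk-/-V2 reads), and Mertk-/-V1 and V2 BMDM 0. In Mertk-/-V2 BMDM the fit of only the groups compared and edgeR gave 0, and the study's fold threshold gave 0 in both BMDM lines. Leaving out single libraries gave 0 to 1 in Mertk-/-V1 BMDM, 0 to 1 in Mertk-/-V2 BMDM, and 0 to 2 in Mertk-/-V1 against the mean of the others in RPE, where the 2, without Mertk-/-V1 replicate 1, were Ifnl2 and Ifnl3 (beside 0.154% of genes), whose Mertk-/-V2 values chose the set. The cause of these moves was not tested. The exact permutation tests of members under the minimum stayed at 0 calls with the other pseudocount and with single B6 WT, Mertk-/-V1 or Mertk-/-V3 libraries left out; these alternatives, and those for the list of induced genes, were added after seeing the data. The replicate set as a term was run for Mertk-/-V1 RPE alone, since the labels do not place the other lines in a set.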
